A study of Homo sapiens with 64 samples.

Results

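ABC drug efflux transporters are membrane pumps that use ATP to move drugs and their conjugates out of cells, and 8 of them were followed here: ABCB1, ABCG2, ABCC1, ABCC2, ABCC3, ABCC4, ABCC5 and ABCC10. They were chosen by symbol, and each matched 1 of the 54127 genes counted in every library. RNA was sequenced from 64 samples of human colorectal cancer cell lines grown as floating spheroids with bFGF and EGF. Of these, 48 were sorted on day 6 after staining with CFSE, which daughter cells share out as they divide. Label-retaining cells (LRCs) were those that stayed bright, and non-LRCs were the bulk, which the labels call cycling. The lines were HT55, SW948, RKO, SW48, DLD1 and HCT15, with 4 replicates of each population. All sorted cells, non-LRCs included, carried the dye. The other 16 samples were unsorted DLD1 cells in 4 groups of 4: CFSE-labeled on day 1, CFSE-labeled on day 5, unlabeled (DMSO) on day 1 and unlabeled (DMSO) on day 5. Day 5 is the day in the sample labels, whereas the description of the series gives day 6. Each line is 1 established tumor line, so replicates measure the spread between cultures or libraries of that line only.

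P-glycoprotein, the product of ABCB1, and the product of ABCG2 export many unmodified anticancer drugs across the apical membrane of intestinal epithelium. Products of the ABCC genes, the multidrug resistance proteins, mostly export organic anions, among them glutathione, glucuronide and sulfate conjugates. ABCC2 is apical, ABCC1 and ABCC3 are basolateral, and ABCC4 and ABCC5 also export cyclic nucleotides and nucleoside analogs. ABCC10 is a broad-range exporter that also carries taxanes.

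Between 12237225 and 20913455 reads per library were counted on genes. Of 12 colorectal epithelial markers, 12 reached a mean of 1 CPM (a gene's reads scaled to a fixed library total, counts per 10 to the power of 6) in HT55 and SW948. DLD1 reached that level for 11, HCT15 for 10 and SW48 for 9. RKO did so for 6, and there CDX1, CEACAM5, GPA33, KRT20, LGALS4 and VIL1 were under 1 CPM. Of 9 measured markers of blood, endothelium, fibroblasts and liver, no more than 3 reached 1 CPM in any line, and CD3E, ALB, APOB and COL3A1 were under 1 CPM in all of them. COL1A1 reached that level in HCT15, HT55 and SW948, and PDGFRB did so in DLD1 and HCT15. VWF reached it in DLD1, HT55 and SW48, and PTPRC in SW48. CD68, a lysosomal protein used as a macrophage marker, reached it in every line, and was at 1088 ± 62.2 CPM in RKO non-LRCs (SD, n = 4). CD68 rose in LRCs across the lines by 0.77 ± 0.14 on the log2 scale (SE, adjusted p = 4.22e-05, edgeR). Its part in the results was not tested. For some members replicates 1 and 2 stood apart from replicates 3 and 4. Over both populations, mean ABCB1 in replicates 3 and 4 was 2.16 times that in replicates 1 and 2 in DLD1 and 1.68 times in HCT15, and ABCC3 was 0.696 times and 0.693 times, with no overlap in any of these 4 cases. ABCC2 also did not overlap in DLD1, at 0.378 times, and in HT55, at 0.875 times, and the other members overlapped in every line. How common such a split was over all genes was not tested, so it is not read as a trait of these members.

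Promoter sequence is shown for 3 members because their levels between lines contrasted most clearly with each other: ABCC2 was abundant only in HT55, ABCC4 was low only there, and ABCC5 was present in all 6 lines. RefSeq windows before a start (build GRCh38.p14) were listed for 6 members, and ABCC1 and ABCC3 had no entry. The stretch printed runs from base 250 to base 56 before the start, 195 bases, 5′ to 3′ on the gene's strand, and lies before any annotated exon. Capitals mark matches on either strand to the CCAAT box, the GC box (letters GGGCGG), the core of the xenobiotic response element (letters GCGTG) or that of the antioxidant response element (letters TGACNNNGC).
ABCC2: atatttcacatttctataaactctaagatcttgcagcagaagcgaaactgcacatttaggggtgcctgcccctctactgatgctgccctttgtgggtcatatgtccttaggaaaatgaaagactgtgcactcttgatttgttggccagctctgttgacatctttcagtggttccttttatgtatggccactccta
ABCC4: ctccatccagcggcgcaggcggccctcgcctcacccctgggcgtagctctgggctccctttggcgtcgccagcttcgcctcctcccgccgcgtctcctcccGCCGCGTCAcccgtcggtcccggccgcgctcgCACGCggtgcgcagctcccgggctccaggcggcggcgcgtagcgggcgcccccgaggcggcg
ABCC5: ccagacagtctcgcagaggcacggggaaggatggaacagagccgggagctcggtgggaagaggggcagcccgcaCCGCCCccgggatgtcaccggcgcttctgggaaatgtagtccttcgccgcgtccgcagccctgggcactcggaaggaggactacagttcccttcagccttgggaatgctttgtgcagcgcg

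The ABCC2 stretch (chr10:99782390-99782584, plus strand) held 1 CG dinucleotide and none of the 4 motifs. The ABCC4 stretch (chr13:95301507-95301701, minus strand) held 33 CG dinucleotides, 1 match to GCGTG and 1 to TGACNNNGC. The ABCC5 stretch (chr3:184017940-184018134, minus strand) held 16 CG dinucleotides and 1 match to GGGCGG. The median over the same stretch of all 35116 promoters in the table was 7 CG dinucleotides, and the share holding a match was 26.6% for CCAAT, 34% for GGGCGG, 25.6% for GCGTG and 8.02% for TGACNNNGC. These matches are descriptions of the letters only.

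To describe which pump transcripts each line carried, RNA levels were compared between the non-LRCs of the 6 lines. Protein and efflux were not measured in these samples. Of 120 tests, 8 members in 15 pairs of lines, 93 had an adjusted p under 0.05 (edgeR's quasi-likelihood test), where 71.2% of all gene and pair tests did. The members fell into those found in every line (ABCC1, ABCC5, ABCC10) and those whose mean was at or under 2 CPM in at least 1 line (ABCB1, ABCC2, ABCC3, ABCC4, ABCG2). The number of pairs called was 14 of 15 for ABCB1, 13 for ABCC3, 12 for ABCC1 and ABCC4, 11 for ABCC2, ABCC5 and ABCC10 and 9 for ABCG2.

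ABCB1 (ENSG00000085563, GRCh37 chr7:87132333-87342639, minus strand) was measured in HCT15 non-LRCs at 95.2, 87.4, 153 and 186 CPM in replicates 1 to 4, and in DLD1 at 42.5, 32.8, 83.6 and 82.4 CPM. In SW948 it was at 41.3, 33.2, 48.6 and 42.7 CPM, and in HT55 at 4.95, 5.12, 6.39 and 5.01 CPM. RKO gave 1, 3, 1 and 1 reads, and SW48 gave 1, 0, 1 and 4 reads. HCT15 was thus above every DLD1 library, DLD1 and SW948 overlapped but differed by the test (log2 difference 0.54 ± 0.24 SE, adjusted p = 0.0428, edgeR), and RKO and SW48 did not differ (adjusted p = 1, edgeR). The ratio of HCT15 to RKO, from 8375 and 6 reads, was 1228 (95% exact counting interval 564 to 3348). SW48 LRCs gave 22 and 17 reads in replicates 1 and 2 but 1 and 2 reads in replicates 3 and 4, so ABCB1 was detected above a few reads in only 2 of 8 SW48 libraries.

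ABCG2 (ENSG00000118777, GRCh37 chr4:89011302-89152780, minus strand) was low throughout. Its highest non-LRC level was in SW48, at 8.04, 20.3, 7.14 and 7.07 CPM, above every other line. DLD1, RKO, SW948 and HCT15 had means of 2.08, 1.41, 1.12 and 1.1 CPM, and no neighbors in that order differed (adjusted p from 0.233 to 0.955, edgeR). In HT55 the non-LRC libraries held 0, 2, 0 and 1 reads. The ratio of SW48 to HT55, from 621 and 3 reads, was 192 (95% exact counting interval 65.4 to 934).

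ABCC2 (ENSG00000023839, GRCh37 chr10:101542397-101612351, plus strand) was at 168, 181, 152 and 153 CPM in HT55 non-LRCs. In the other 5 lines the means lay between 0.591 CPM in RKO and 1.75 CPM in DLD1. HT55 exceeded DLD1, the next line, by 6.54 ± 0.25 on the log2 scale (SE, adjusted p = 5.85e-18, edgeR), with every HT55 library above every other. ABCC4 (ENSG00000125257, GRCh37 chr13:95672089-95953729, minus strand) ran the other way, with 2.51, 1.43, 2.81 and 1.25 CPM in HT55 and means from 42.6 ± 5.16 CPM in SW48 to 122 ± 8.37 CPM in DLD1 (SD, n = 4). HT55 was lower than SW48, the next line, by a log2 difference of 4.36 ± 0.17 (SE, adjusted p = 1.1e-17, edgeR). DLD1, HCT15, RKO and SW948, at means of 122, 103, 91 and 79.3 CPM, were not separated from their neighbors in the order (adjusted p from 0.0561 to 0.175). Lines further apart were: DLD1 exceeded RKO (0.44, adjusted p = 0.00199, edgeR) and SW948 (0.63, 4.36e-05), and HCT15 exceeded SW948 (0.37, 0.00729).

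ABCC3 (ENSG00000108846, GRCh37 chr17:48712138-48769614, plus strand) was highest in HT55 non-LRCs, at 467, 344, 404 and 470 CPM, followed by SW948 at 279, 243, 277 and 302 CPM. Those libraries did not overlap (log2 difference 0.64 ± 0.16 SE, adjusted p = 0.000827, edgeR). DLD1, SW48 and HCT15 had means of 107, 104 and 83.3 CPM, and neighbors among them overlapped (adjusted p = 0.788 and 0.0898). DLD1 and HCT15, the ends of that group, differed by 0.36 on the log2 scale (adjusted p = 0.0483, edgeR). RKO held 1, 3, 3 and 3 reads, and the ratio of HT55 to RKO, from 22777 and 10 reads, was 2419 (95% exact counting interval 1315 to 5046).

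Levels of ABCC1, ABCC5 and ABCC10 spanned a narrow range. ABCC1 (ENSG00000103222, GRCh37 chr16:16042995-16237114, plus strand) had non-LRC means of 178 CPM in SW48, 176 in RKO, 174 in HCT15, 130 in DLD1, 103 in HT55 and 72.5 in SW948, and the first 3 were not distinguishable (adjusted p = 0.891 and 1, edgeR). ABCC5 (ENSG00000114770, GRCh37 chr3:183637722-183735727, minus strand) ran from 80.4 ± 4.1 CPM in SW48 to 23.5 ± 3.54 CPM in HT55 (SD, n = 4), with SW48 and DLD1 (74.9 ± 7.02) overlapping at the top. ABCC10 (ENSG00000124574, GRCh37 chr6:43395104-43418165, plus strand) was highest in HT55, at 53.5, 49.4, 61.3 and 62.9 CPM, then in SW948 at 41.7, 40.9, 35.2 and 41.7 CPM. HCT15, RKO, SW48 and DLD1 followed at means of 28.9, 26, 25.3 and 23.3 CPM, with neighbors not separated (adjusted p from 0.107 to 0.732). Among these, DLD1 minus HCT15 (-0.31, adjusted p = 0.00432, edgeR) and HCT15 minus SW48 (0.20, 0.0492) were called. The highest line exceeded the lowest 2.45-fold for ABCC1, 3.42-fold for ABCC5 and 2.44-fold for ABCC10. ABCC10 shares 76 exonic bases with DLK2 on the opposite strand, and the strand setting of the counting was not given in the sources used here.

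**Figure D1:**
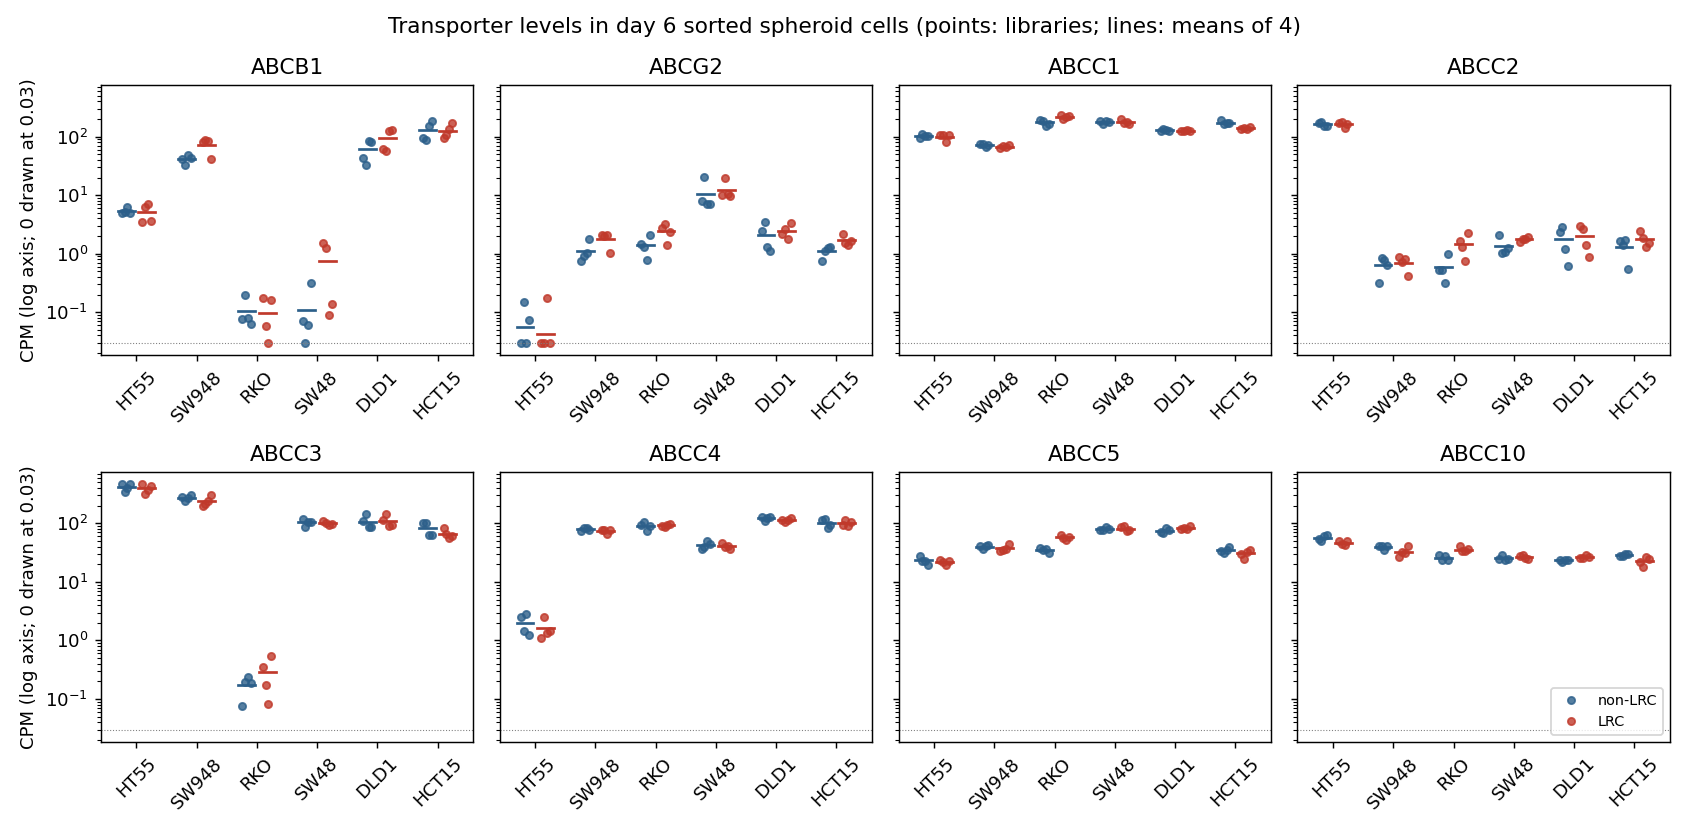
CPM of each member (log axis, libraries with no reads drawn at 0.03 CPM) in the 6 lines on day 6; points are single libraries of non-LRCs (blue) and LRCs (red) and short lines are means of 4. ABCC1, ABCC5 and ABCC10 lie at or above 17.7 CPM in every library, whereas ABCB1 in RKO and SW48, ABCC3 in RKO and ABCG2 in HT55 approach 0.

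Members can be compared with each other only per length, as CPM divided by the kilobases of annotated exon (RPKM). On this scale ABCC3 led in HT55 non-LRCs at 43.8 RPKM, followed by ABCC2 at 20.9, and it also led in SW948 at 28.6. In DLD1, RKO and SW48 ABCC1 ranked first by mean, at 14.8, 20.1 and 20.3 RPKM. The lead in DLD1 was within the spread, with ABCC1 at 14.8 ± 0.614 and ABCC4 at 14.2 ± 0.97 RPKM (SD, n = 4). HCT15 had means of 20.3 RPKM for ABCB1 and 20 RPKM for ABCC1, but ABCB1, at 14.8, 13.6, 23.8 and 29 RPKM, was below ABCC1 (21.7, 19.2, 19.4 and 19.6 RPKM) in replicates 1 and 2 and above it in replicates 3 and 4. The sum over the 8 members was 86.7 ± 5.19 RPKM in HT55, 67.8 ± 4.32 in HCT15, 61.3 ± 2.95 in SW948, 59.6 ± 2.15 in DLD1, 48.4 ± 1.22 in SW48 and 37.3 ± 3.62 in RKO (SD, n = 4 non-LRC libraries each).

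Likeness of pattern was measured by Pearson's r of log2 CPM over 12 means, 1 per line and population, among 13757 genes. These r values are descriptions: each line enters with both populations, and genes absent from 1 line resemble each other for that reason alone. Nearest to ABCC3 were GPR35 (r = 0.999), HNF4A (0.998), a transcription factor of intestinal and hepatic epithelium, and PDE9A (0.997). HNF4A was at 0.0665 ± 0.0887 CPM in RKO non-LRCs (SD, n = 4) and at 198 ± 10.2 CPM in HT55. Nearest to ABCB1 were ARFIP1 (0.992) and TNFSF13, to ABCC2 CEL (0.989), NXPH3 and VENTX, and to ABCC4 SLC7A2 (0.997), FGGY and FAM171B. For ABCC1 they were ZMYM1 (0.965), CLCC1 and PCNX1, for ABCC5 ACTR8 (0.949), CEP192 and MMP11, for ABCC10 GON4L (0.941), UQCC1 and NPAS2, and for ABCG2 PMS2CL (0.968), FAM241B and IGSF9B. The nearest genes depended on the measure. By rank correlation (Spearman's rho), only ZMYM1, FGGY, GON4L and NPAS2 of those named were also among the 3 highest for their member. Between members, ABCC2 and ABCC4 were most opposed (r = -0.955), and ABCC5 and ABCG2 were most alike (0.848).

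To ask whether cells that retain the dye carry more RNA for these pumps, LRCs were compared with non-LRCs across the 6 lines with line as a covariate. By edgeR's test ABCB1 and ABCG2 were higher in LRCs and the other 6 members were not called. That is 2 of 8 tested members, against 22.9% of all 16603 genes tested. The log2 difference was 0.42 ± 0.16 for ABCB1 (SE, adjusted p = 0.0433, edgeR) and 0.45 ± 0.16 for ABCG2 (adjusted p = 0.0331). LRCs were higher in 15 of 24 same-numbered pairs for ABCB1 and in 17 of 23 pairs with reads for ABCG2. ABCC2 had a log2 difference of 0.26 ± 0.13 (adjusted p = 0.139), higher in 18 of 24 pairs, and DESeq2 called it beside those 2 members (0.36, adjusted p = 0.0428). The remaining 5 members had log2 differences from -0.11 (ABCC3) to 0.09 (ABCC5), and the median over the 8 members was 0.03, against 0.01 over all genes.

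Neither call was stable when a line or a replicate number was left out of this fit, which had no replicate block. With the replicate number as a block both passed edgeR's test (adjusted p = 0.00972 for ABCB1 and 0.00997 for ABCG2). That block also covered RKO and SW948, whose numbers did not pair the samples, and nothing was left out of that fit. Without RKO the adjusted p was 0.0811 for ABCB1 and 0.143 for ABCG2, and without SW948 it was 0.295 and 0.0959. ABCB1 was also lost without DLD1 (adjusted p = 0.154) or SW48 (0.065), and ABCG2 without HCT15 (0.0893). Without replicate 1 the values were 0.112 for ABCB1 and 0.187 for ABCG2, without replicate 3 they were 0.1 and 0.132, and ABCB1 was lost without replicate 2 (0.168) and ABCG2 without replicate 4 (0.0633). All differences stayed above 0 in these fits, between 0.28 and 0.51 on the log2 scale. Since sorted cells were measured in bulk, more cells with a transcript and more transcript per cell cannot be told apart.

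RKO was the line with the most members called, 4 of the 6 tested, in which 41.5% of all genes were called. All 4 were higher in LRCs. ABCC5 was at 37.8, 34.9, 36.2 and 31.6 CPM in RKO non-LRCs and at 62.6, 57.2, 52.5 and 59.4 CPM in LRCs. The groups did not overlap, and the log2 difference was 0.70 ± 0.08 (SE, adjusted p = 1.07e-05, edgeR). ABCC10 was at 29, 23.5, 27.3 and 24.1 CPM in non-LRCs and at 40.4, 33.4, 33.1 and 36.3 CPM in LRCs, again without overlap, with a log2 difference of 0.44 ± 0.09 (adjusted p = 0.00179). ABCC1 went from 196, 187, 154 and 164 CPM to 233, 203, 214 and 228 CPM, every LRC library being above every non-LRC library (log2 difference 0.30 ± 0.08, adjusted p = 0.00696). These 3 members were called with each RKO library left out in turn.

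ABCC2 in RKO rested on few reads, 7, 8, 4 and 16 in non-LRCs and 19, 22, 9 and 42 in LRCs. The groups overlapped, and the log2 difference was 1.3 ± 0.38 (SE, adjusted p = 0.0133, edgeR). It passed the filter of 10 reads in 4 libraries by exactly that margin, so that without LRC replicate 1, 2 or 4, or non-LRC replicate 4, it was not tested. ABCG2 in RKO, at 1.44, 1.3, 0.789 and 2.12 CPM in non-LRCs and 2.7, 3.21, 1.4 and 2.38 CPM in LRCs, missed the threshold (log2 difference 0.75 ± 0.30, adjusted p = 0.0545). It passed without LRC replicate 3 (0.92, adjusted p = 0.0162) or non-LRC replicate 4 (1.02, adjusted p = 0.0205). ABCC4 had a log2 difference of -0.00 ± 0.08 in RKO, and ABCB1 and ABCC3 were too low to test. The median over the 6 tested members was 0.57, against 0.01 over all genes.

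In DLD1, 0 of 8 members passed edgeR's test, where 14.6% of all genes did, and DESeq2 also called 0. The unadjusted p was under 0.05 for 2 members. This count and the like counts below have no share of all genes at that threshold beside them. They are not read as traits of the members. ABCB1 was at 42.5, 32.8, 83.6 and 82.4 CPM in non-LRCs and at 62.1, 57.6, 124 and 132 CPM in LRCs of replicates 1 to 4. The groups overlapped, but LRCs were higher in 4 of 4 same-numbered pairs, by ratios of 1.46, 1.76, 1.48 and 1.61, so the ratio was as large within replicates 1 and 2 as within 3 and 4. The log2 difference was 0.65 ± 0.34 (adjusted p = 0.225). Same-numbered DLD1 samples deviated together (r from 0.154 to 0.334), but LRC replicates 1 and 4 correlated more with a non-LRC sample of another number. The pairing behind the block is thus only partly borne out. With the replicate number as a block ABCB1 passed (0.66, adjusted p = 5.46e-10), as did ABCC5 (0.17, adjusted p = 0.0158) and ABCC10 (0.20, adjusted p = 0.0233), 3 of 8 against 33.8% of all genes.

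HCT15 had 0 of 8 members called by edgeR, where 0.977% of all genes were, and 1, ABCC1, called by DESeq2 (adjusted p = 0.00355). The unadjusted p was under 0.05 for 3 members, a threshold to which that share does not apply. ABCC1 was at 190, 167, 169 and 171 CPM in non-LRCs and at 137, 141, 136 and 145 CPM in LRCs. All 4 LRC libraries were below all non-LRC libraries (log2 difference -0.31 ± 0.07, adjusted p = 0.0734). ABCC10 also did not overlap, at 28.1, 28, 29.7 and 29.8 CPM against 21.8, 17.7, 26.5 and 24.8 CPM in LRCs (-0.34 ± 0.12, adjusted p = 0.2). With the replicate number as a block, 3 of 8 members passed, against 21.3% of all genes: ABCC1 (-0.31, adjusted p = 0.00218), ABCC3 (-0.31, adjusted p = 0.0105) and ABCC10 (-0.35, adjusted p = 0.0105), all lower in LRCs. ABCB1, highest of all lines here, had a log2 difference of -0.05 ± 0.25, and its same-numbered ratios were 0.995, 1.2, 0.872 and 0.905.

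SW948 had 0 of 8 members called by edgeR and by DESeq2, and edgeR called 0% of all genes there. The unadjusted p was under 0.05 for 2 members. ABCB1 was at 41.3, 33.2, 48.6 and 42.7 CPM in non-LRCs and at 81.5, 87.4, 82.8 and 41.8 CPM in LRCs. The first 3 LRC libraries were above every non-LRC library and the last was among them (log2 difference 0.83 ± 0.19, adjusted p = 0.134). Without LRC replicate 4, edgeR called 4 members, ABCB1 (1.03, adjusted p = 3.49e-05) and ABCG2 (0.89, adjusted p = 0.0484) higher and ABCC3 (-0.32, adjusted p = 0.0399) and ABCC10 (-0.39, adjusted p = 0.0192) lower in LRCs, and the number of all genes called went from 0 to 1956. Why that library differed was not tested.

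In HT55 and SW48, edgeR and DESeq2 called 0 of the 7 members tested in each line, and 1 member in HT55 and 0 in SW48 had an unadjusted p under 0.05. The share of all genes called by edgeR was 0% in HT55 and 0.796% in SW48. ABCC10 in HT55 was the member with the smallest p, at 53.5, 49.4, 61.3 and 62.9 CPM in non-LRCs and 50.5, 44.2, 43 and 49.9 CPM in LRCs, groups that overlapped (log2 difference -0.27 ± 0.10, adjusted p = 0.607). HT55's leading pump transcripts had log2 differences of -0.07 ± 0.14 for ABCC3 and 0.00 ± 0.10 for ABCC2. ABCG2 in SW48, its highest line, had a log2 difference of 0.22 ± 0.37.

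**Figure D2:**
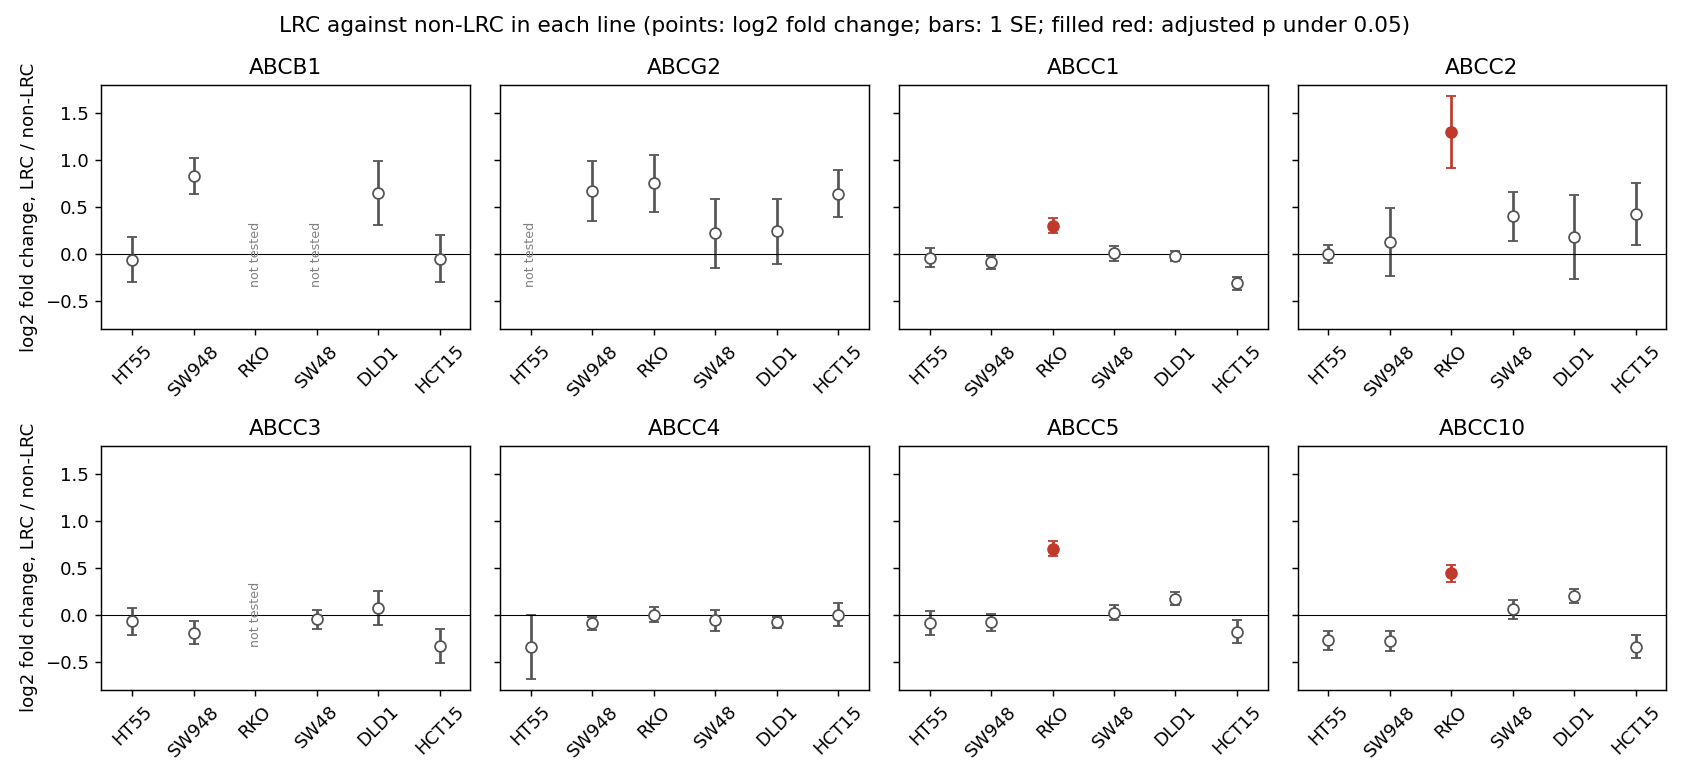
Log2 fold change of LRCs against non-LRCs in each line (vertical axis, bars of 1 SE, 4 against 4 libraries, each line fitted alone); filled red points have an adjusted p under 0.05. ABCC1, ABCC2, ABCC5 and ABCC10 are filled in RKO only, at 0.30, 1.3, 0.70 and 0.44, and ABCC1 and ABCC10 lie below 0 in HCT15 at -0.31 and -0.34.

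**Figure D3:**
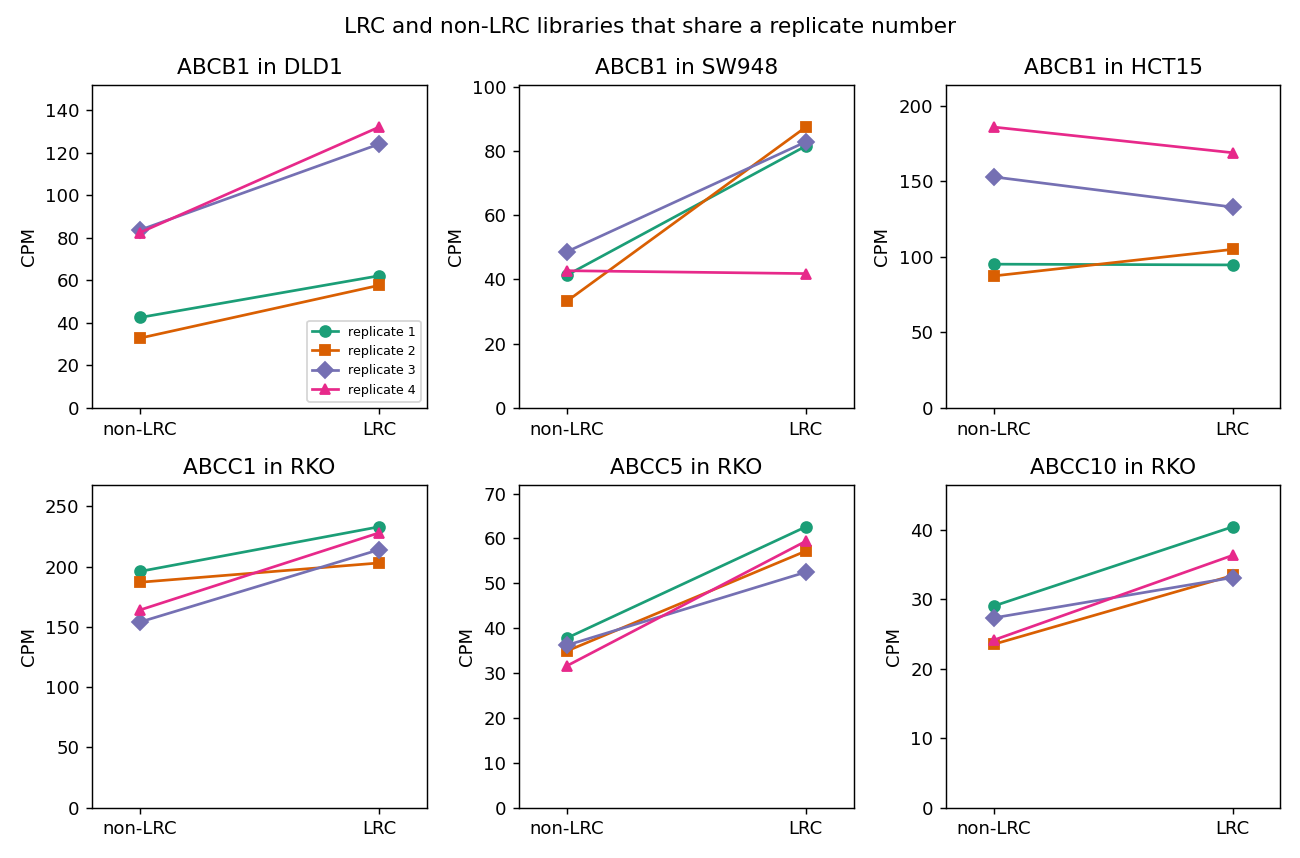
CPM (linear axis from 0) in non-LRC and LRC libraries, with lines joining those that share a replicate number. ABCB1 is higher in LRCs in 4 of 4 DLD1 pairs, 3 of 4 SW948 pairs and 1 of 4 HCT15 pairs, and ABCC1, ABCC5 and ABCC10 are higher in all 4 RKO pairs.

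Whether the LRC difference itself varied between lines was tested as an interaction. ABCC1 (adjusted p = 0.00145), ABCC5 (8.78e-05) and ABCC10 (0.000257) passed edgeR's test, 3 of 8 members against 14.3% of all genes. For ABCC10 the line values ran from -0.34 in HCT15, -0.28 in SW948 and -0.27 in HT55 up to 0.44 in RKO, with SW48 at 0.06 and DLD1 at 0.20 between. ABCC5 and ABCC1 likewise were lowest in HCT15 (-0.18 and -0.31) and highest in RKO (0.70 and 0.30). ABCC1 missed the threshold without replicate 4 (adjusted p = 0.0612). ABCB1 (adjusted p = 0.183) and ABCC2 (0.299) missed it but passed with the replicate number as a block (0.00178 and 0.0173), and ABCB1 also passed with DESeq2 (0.0259) and without a filter (0.00151). For ABCC3 (0.644), ABCC4 (0.88) and ABCG2 (0.883) a difference between lines was not shown.

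The rest of the ABC family gives the setting. Of 40 other ABC genes, 28 were tested across the lines and 9 (32.1%) were called, 5 higher and 4 lower in LRCs, where 22.9% of all genes were called. The 5 that rose were all among the 11 tested lipid and sterol transporters, whose median log2 difference was 0.35. ABCA12, a lipid transporter of epidermis, changed by 2.61 ± 0.32 (SE, adjusted p = 2.54e-07, edgeR) from low levels, at most 3.43 CPM in any group mean, and ABCG1, a cholesterol exporter, by 1.0 ± 0.13 (adjusted p = 2.89e-07). ABCG1 was at 6.23 ± 1.24 CPM in DLD1 non-LRCs and 20 ± 2.02 CPM in LRCs (SD, n = 4). Among the 8 tested mitochondrial, lysosomal and peroxisomal members 2 fell, ABCB8 (-0.30 ± 0.06, adjusted p = 0.000262) and ABCB10 (-0.13 ± 0.04, adjusted p = 0.0104), both mitochondrial. ABCF2 (-0.10 ± 0.02, adjusted p = 0.00133) and ABCE1 (-0.16 ± 0.05, adjusted p = 0.0174), soluble proteins of translation, also fell, 2 of 4 in their list. None of the 5 tested peptide transporters, channels and remaining ABCB and ABCC genes passed edgeR's test. The 2 with the smallest p in that list were ABCC6 (-0.17 ± 0.09, adjusted p = 0.166) and TAP1 (0.07 ± 0.05, adjusted p = 0.26).

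The enzymes that make the conjugates exported by ABCC proteins were followed beside them, with uptake carriers, regulators and scaffolds. The counts that follow stand against the same 22.9% of all genes called across lines. Of 14 tested genes of glutathione synthesis and transfer, 6 fell in LRCs and 0 rose, with a median of -0.12, and MGST1, a membrane-bound glutathione transferase (-0.40 ± 0.06, adjusted p = 1.71e-06, edgeR), and GSR, glutathione reductase (-0.18 ± 0.04, adjusted p = 0.000251), had the smallest p. None of 10 tested glucuronidation and sulfation genes passed edgeR's test (median -0.15), SULT2B1 being closest at 0.22 ± 0.08 (adjusted p = 0.0501) and then UGDH at -0.11 ± 0.04 (0.0531). Among 14 uptake carriers (median -0.09) 1 rose and 2 fell, the latter SLC29A2, a nucleoside carrier (-0.39 ± 0.05, adjusted p = 6.42e-07), and SLC19A1, the folate carrier (-0.31 ± 0.05, adjusted p = 3.19e-05). Of 12 tested drug-sensing receptors and factors (median -0.04) 1 rose and 2 fell, with FOXO3 at 0.17 ± 0.05 (adjusted p = 0.00829) and HNF4A at -0.15 ± 0.04 (0.00832). Of 8 membrane scaffold genes (median 0.04) 2 rose and 1 fell, with CAV1 at 0.55 ± 0.12 (adjusted p = 0.000745) and MSN, or moesin, at 0.82 ± 0.23 (0.00852). MSN was at means of 28.1 CPM in RKO non-LRCs and 30.3 CPM in LRCs, and at most 2.11 CPM in any other group mean. CAV1 went from 21.1 to 57.4 CPM in RKO but was at 204 and 206 CPM in SW48, its highest line. Both genes had lower means in LRCs of HT55.

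The unsorted DLD1 controls address what time in culture and the dye do to these transcripts without a sort. All 16 libraries were fitted together, and comparisons that share a group are not independent. Libraries of the 2 days also differed in make-up. Reads outside genes were 8.96 to 14.8% on day 1 and 5.19 to 8.35% on day 5. Genes detected were 20913 to 22695 on day 1 and 19227 to 20559 on day 5. The part of this library difference in the time results was not tested. Between day 1 and day 5 without dye, 4 of 8 members were called, against 25.5% of all genes, ABCC4 higher and ABCC2, ABCC5 and ABCG2 lower. DESeq2 called 6, adding ABCC3 (-0.82, adjusted p = 0.023) and ABCC10 (-0.51, adjusted p = 0.0495), both lower on day 5. With dye it was 3 of 8, against 39.3% of all genes, ABCC4 higher and ABCC2 and ABCC5 lower. Of 11 tested epithelial markers, 6 also rose over time in each arm (median log2 difference 0.73 without and 0.68 with dye), and 4 were lower with dye on day 1; their part in the member results was not tested.

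ABCC4 was at 68, 69.8, 91.4 and 115 CPM on day 1 and 143, 136, 117 and 104 CPM on day 5 without dye, groups that overlapped in 1 library each. The log2 difference was 0.53 ± 0.17 (SE, adjusted p = 0.0291, edgeR), and without TMM it missed the threshold (0.40, adjusted p = 0.085). It also missed without unlabeled day 1 replicate 1, 2 or 3, or unlabeled day 5 replicate 1 or 2 (adjusted p from 0.0648 to 0.109). With dye the values were 71.8, 68.7, 97.5 and 99.7 CPM and then 139, 157, 127 and 134 CPM, without overlap (0.68 ± 0.17, adjusted p = 0.00457). ABCC5 fell from 53.6, 52.2, 57.5 and 42.5 CPM to 22.5, 29.2, 40.3 and 41.9 CPM without dye (-0.62 ± 0.16, adjusted p = 0.0151) and from 53.4, 50.3, 52.1 and 51.7 CPM to 36.3, 35.5, 41.5 and 38.2 CPM with dye (-0.49 ± 0.16, adjusted p = 0.0224). In neither case did the days overlap. ABCC2 fell from 2.72, 3.18, 3.04 and 2.33 CPM to 1.24, 1.76, 1.41 and 2.08 CPM without dye (-0.79 ± 0.22, adjusted p = 0.0184) and from 3.2, 2.96, 3.77 and 4.09 CPM to 2.09, 1.59, 2.25 and 1.92 CPM with dye (-0.87 ± 0.21, adjusted p = 0.00455), again without overlap. Without dye, ABCC2 lost its call by edgeR without a filter (adjusted p = 0.057). It did so too without unlabeled day 1 replicate 1, 2 or 3, or unlabeled day 5 replicate 1 (0.0502 to 0.0601). ABCC5 lost its call without unlabeled day 1 replicate 1 or 3 (0.0526 and 0.0541). With dye, ABCC5 lost it without CFSE-labeled day 1 replicate 1, or CFSE-labeled day 5 replicate 1 or 2 (0.054 to 0.06).

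ABCG2 was called over time without dye and not with it. Without dye it fell from 3.47, 2.55, 3.45 and 2.17 CPM to 1.58, 1.89, 1.19 and 0.946 CPM, without overlap (-1.06 ± 0.27, adjusted p = 0.0131, edgeR). With dye it was at 3.84, 3.79, 3.12 and 3.41 CPM on day 1 and 4.75, 4.35, 2.66 and 2.77 CPM on day 5 (-0.01 ± 0.25). On day 5 CFSE-labeled cells were therefore above all unlabeled cells, by 1.36 ± 0.26 on the log2 scale (adjusted p = 0.0169), the only 1 of 8 members called for the dye on that day, against 5.13% of all genes. The test of the difference between the time courses gave 1.05 ± 0.36 for ABCG2 and missed the threshold (adjusted p = 0.154). No member passed that test by edgeR, where 0.999% of all genes did, and DESeq2 called 0. The unadjusted p was under 0.05 for 1 member. The day 5 call was lost without CFSE-labeled day 5 replicate 1 or 2, or unlabeled day 5 replicate 1, 3 or 4, at adjusted p from 0.0503 to 0.0861.

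On day 1 the dye gave 1 of 8 members called, ABCC3, against 21.8% of all genes. It was at 149, 118, 139 and 83.1 CPM in unlabeled and 46.3, 33.9, 103 and 91.2 CPM in CFSE-labeled cells, overlapping groups with a log2 difference of -0.81 ± 0.28 (SE, adjusted p = 0.0491, edgeR). Over time without dye, unlabeled ABCC3 went to 51.8, 68.4, 74.1 and 90.3 CPM on day 5, overlapping day 1 (-0.78 ± 0.28, adjusted p = 0.0516), which passed without a filter (-0.80, adjusted p = 0.0115). The call for the dye was lost with any of 12 of the 16 libraries left out, at adjusted p from 0.0507 to 0.162, and it held only without CFSE-labeled day 1 replicate 3 or 4, or unlabeled replicate 4 of either day. ABCB1 was at 147 to 175 CPM in unlabeled and 117 to 143 CPM in CFSE-labeled cells on day 1 (-0.25 ± 0.11, adjusted p = 0.0985). Its time differences were -0.17 ± 0.11 without and -0.04 ± 0.11 with dye, and neither passed. The count without dye over time depended on single libraries, with 0 members called without unlabeled day 1 replicate 1, 1 without replicate 3, 2 without replicate 2 of that group or without unlabeled day 5 replicate 1, and 6 without unlabeled day 1 or day 5 replicate 4. The count over all genes moved too. It went from 3695 to 963 without unlabeled day 1 replicate 1, 1218 without replicate 3 and 1292 without replicate 2. Without unlabeled day 5 replicate 1 it was 1566, and without unlabeled day 1 replicate 4 it was 6077. The dependence is thus not particular to the members.

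**Figure D4:**
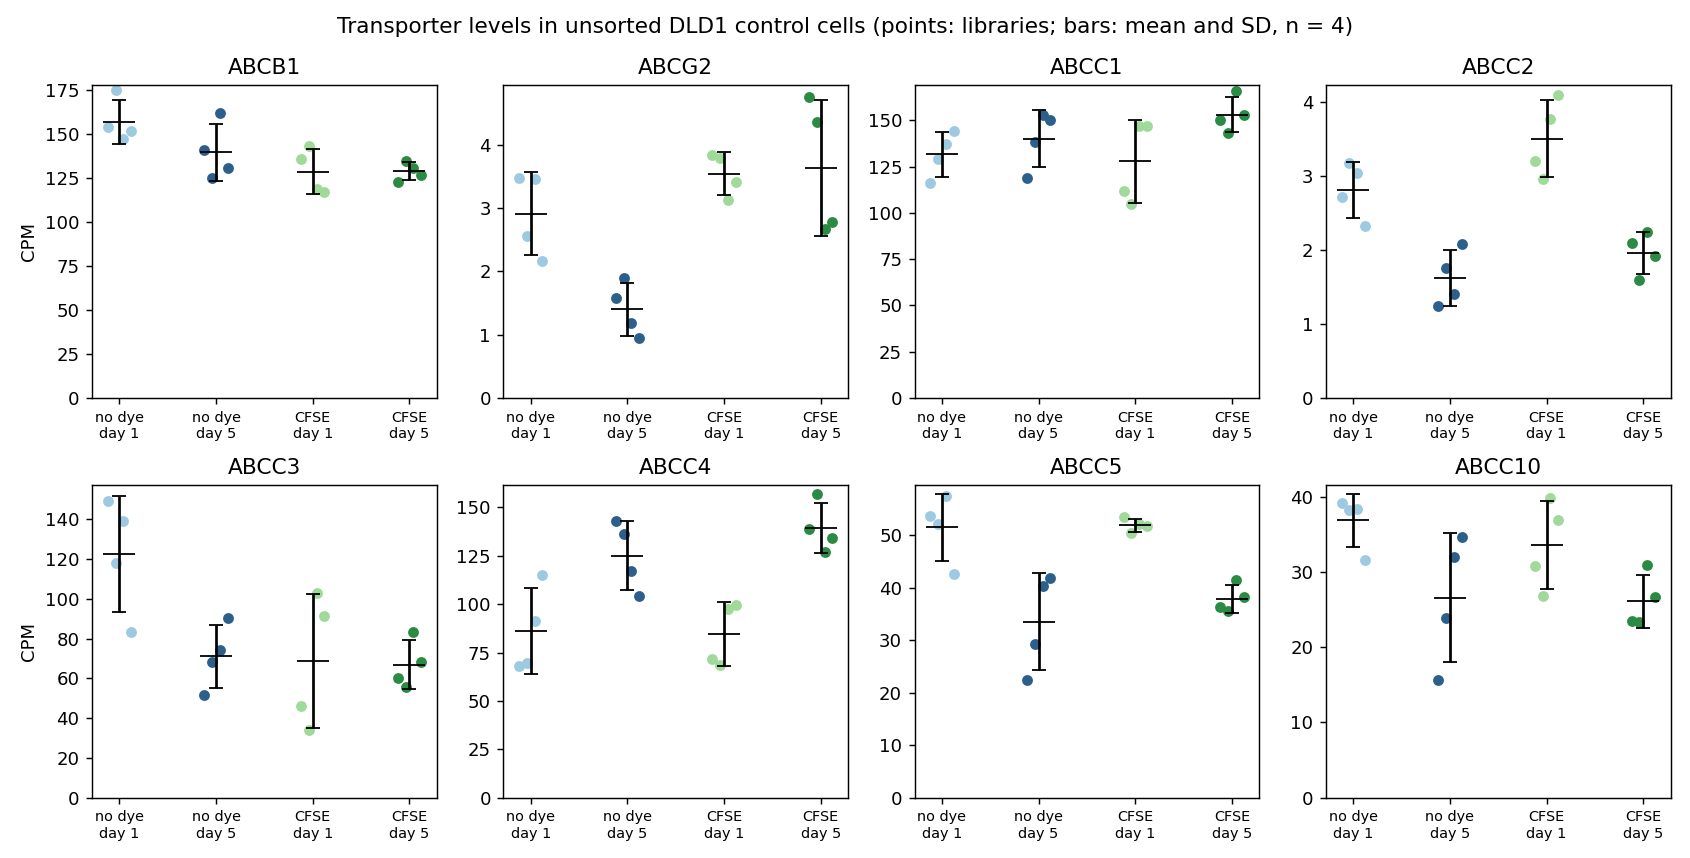
CPM of each member (linear axes from 0) in the 4 control groups; points are libraries and black marks the mean with SD, n = 4. By mean, ABCC4 is higher and ABCC2 and ABCC5 are lower on day 5 with and without dye, while ABCG2 on day 5 lies between 0.946 and 1.89 CPM without dye and between 2.66 and 4.75 CPM with it.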

How the data were processed

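For each sample the authors deposited a table of raw read counts over 54127 Ensembl identifiers. The reads came from 50-bp single-end sequencing, the build was hg19 (GRCh37), and the submitters' processing notes name TopHat, HTSeq and DESeq, without versions. Annotation and strand setting were not given in the sources used here. Reads outside genes (5.19 to 14.8%) and ambiguous reads (1.52 to 2.21%) stayed out of library sizes.

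Samples were grouped by the labels. A gene entered a fit if 4 or more of its samples held 10 or more counts, and edgeR 4.0.16 (TMM, quasi-likelihood, two-sided, Benjamini-Hochberg, threshold 0.05) in R 4.3.3 was the test, with DESeq2 1.42.0 as an alternative. The model across lines had line as covariate, each line was also fitted alone, and pairs of lines used non-LRCs and were adjusted over all genes and pairs. CPM used TMM over 64 libraries, and RPKM the exonic length of GENCODE 44 on GRCh37. Log2 CPM for likeness had a prior count of 2. Counting intervals are exact binomial and cover counting error only. Tests were checked on simulated counts. Nothing in the labels says that replicates came from separate cultures, so p-values measure the spread between samples.

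The labels give LRC and non-LRC samples shared numbers. Over tested genes, same-numbered deviations correlated at 0.128 to 0.46 in every pair of DLD1, HCT15, HT55 and SW48, which were taken as paired from the data, and at -0.0686 to 0.118 in RKO and SW948, which were not. Among the lines taken as paired, another number correlated more for LRC replicates 1 and 4 of DLD1. The same held for LRC replicate 1 of HCT15 and of HT55. Of the control comparisons, time with dye was paired by this standard (0.124 to 0.239), and its calls were the same 3 members with the block. Time without dye (-0.225 to 0.157) and the dye on day 1 (from 0.0371) and day 5 (from 0.0493) were not. For time with dye, CFSE-labeled day 1 replicates 2 and 4 correlated more with another number of day 5. All 8 members are named throughout. Of each other list the 2 genes with the smallest p across lines, and for each member the 3 genes of highest r, are named, except 1 that is not reported here, and CD68 was added after its values were seen. Members and lists were chosen with earlier results of these data known.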

Additional observations from a re-analysis of the deposited data

Results flagged for a closer look

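The LRC difference varied between lines for ABCC1 (adjusted p = 0.00145), ABCC5 (8.78e-05) and ABCC10 (0.000257) by edgeR's interaction test.

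In 10 of 117 sets of 4 replicates, 1 library lay far from the other 3 by Dixon's test, which chance alone gives in about 1 in 20 sets. SW948 LRC replicate 4 appeared for both ABCB1, at 41.8 CPM against 81.5 to 87.4, and ABCG2, at 1.02 against 2.02 to 2.1. Replicate 2 of SW48 was high for ABCG2 in non-LRCs, at 20.3 CPM against 7.07 to 8.04, and in LRCs, at 19.3 against 9.76 to 10.3. ABCB1 was at 6.39 CPM in HT55 non-LRC replicate 3, against 4.95 to 5.12. ABCC1 was at 190 CPM in HCT15 non-LRC replicate 1, against 167 to 171, and at 82.1 in HT55 LRC replicate 3, against 105 to 108. ABCC4 was at 66.3 CPM in SW948 LRC replicate 3, against 75.9 to 77.3. ABCC10 was at 35.2 CPM in SW948 non-LRC replicate 3, against 40.9 to 41.7, and at 31.6 in unlabeled day 1 replicate 4, against 38.2 to 39.2.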

How the results depend on the processing

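Counts of members called are given for each alternative that moved them by over 1.5 times. Counts over all genes that moved by as much are summarized further below, and the member counts are to be read beside them. Across lines, 2 became 0 without RKO or SW948, 1 without DLD1, HCT15 or SW48, and 0 to 1 with a replicate number left out. In DLD1, 0 became 1 without a filter and 1 without TMM, in HCT15 1 with DESeq2 and 2 with all 48 samples in one fit, and in SW948 1 without a filter. Leaving out 1 library gave 0 to 4 in SW948, 0 to 6 for time without dye and 0 to 1 for the dye on day 1 and on day 5, and no member was called in DLD1, HCT15, HT55 or SW48. The dye on day 1 also gave 0 without TMM. Omitting TMM moved the median of all genes by -0.13 and -0.11 for time without and with dye.

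With the replicate number as a block, the difference between lines gave 5 members in place of 3, where 5584 of 16603 genes were called. It added ABCB1 (adjusted p = 0.00178, edgeR) and ABCC2 (0.0173). DLD1 and HCT15 gave 3 each in place of 0, against 33.8% and 21.3% of all genes. The 2 calls across lines and 93 between lines kept their number. Where numbers did not pair the samples, SW948 gave 1, ABCB1 (0.79, adjusted p = 0.00127), where 501 of 13674 genes were called. RKO gave 5 in place of 4, where 4738 of 12731 genes were called. Time without dye gave 6 in place of 4, where 4349 of 14518 genes were called. Pairing gave 0 members in HT55 and SW48.

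Between lines, 93 of 120 calls became 97 in LRCs and 87 to 93 with a replicate number left out. The sign turned in LRCs for HCT15 minus RKO (ABCC1 -0.63, ABCC5 -0.90, ABCC10 -0.63), RKO minus SW948 (ABCC2 1.13, ABCC5 0.59, ABCC10 0.11), RKO minus SW48 (ABCB1 -2.87, ABCC1 0.28), DLD1 minus HCT15 (ABCC10 0.23) and HCT15 minus SW48 (ABCC10 -0.21), and without TMM for HCT15 minus SW48 (ABCC1 0.18). In no case were both directions called. Uncalled non-LRC values were 0.00, 0.00 and 0.17 for HCT15 minus RKO, in the same order. They were -0.06 (ABCC2) and -0.20 (ABCC5) for RKO minus SW948, and 0.02 (ABCB1) and -0.01 (ABCC1) for RKO minus SW48. ABCB1 in LRCs rested there on 42 reads in SW48 and 6 in RKO. The cause was not tested.

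Calls over all genes moved more. Across lines 3803 became 2378 without RKO and 2243 without replicate 3. The difference between lines went from 2380 to 5584 with the block and 522 without replicate 1. DLD1 went from 1978 to 4591 (block), 646 (one fit) and 963 without non-LRC replicate 1, and HCT15 from 137 to 527 (DESeq2), 347 (no filter), 2987 (block), 697 (one fit) and 0 to 233 without 1 library. HT55 went from 0 to 37 (DESeq2), 102 (no filter), 106 (one fit) and 521 without non-LRC replicate 2, SW48 from 105 to 361, 285, 1279 (block), 486 and 21 to 182, and SW948 from 0 to 238, 973, 501 (block), 389 and 1956 without LRC replicate 4. Time without dye went from 3695 to between 963 and 6077, the dye on day 1 from 3162 to 1358, the dye on day 5 from 745 to 1496 (DESeq2), 1511 (block) and 0 to 1923, and time by dye from 145 to 560, 454, 85 (no TMM) and 16 to 880.

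At 10 reads or fewer in every library, ABCB1 in RKO, ABCC3 in RKO and ABCG2 in HT55 allow no statement on LRCs at this depth.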
